A study of Mus musculus with 9 samples.

Results

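The genes described here carry the cell's response to a shortage of amino acids and to unfolded protein in the endoplasmic reticulum (ER). They are Atf4, Ddit3, Ddit4, Trib3, Asns, Sesn2, Chac1, Ppp1r15a, Xbp1 and Hspa5, chosen by name. The 10 symbols matched 11 of the 53801 entries of the count table. Ddit3 has 2 entries, and the shorter one, an overlapping entry of 105 bases, held 0 counts in the 9 libraries, so the other is used. All 10 genes were among the 12538 protein-coding genes with enough counts to be tested.

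The libraries are poly-A RNA of CD11b+ cells, which take in some NK cells beside microglia and other myeloid cells, and were obtained from the tumor-bearing hemispheres of male C57BL/6J mice that were 10 to 12 weeks old when the study began. Every mouse, controls included, carried a GL261 glioma expressing tdTomato and luciferase. CTR mice (2 libraries) received saline by gavage. OAT-1746 mice (2 libraries) received an arginase inhibitor at 50 mg/kg from day 1, anti-PD-1 mice (2 libraries) received an antibody to the checkpoint receptor PD-1 (2.5 mg/kg) first on day 8 and again on days 10, 12 and 14, and COMB mice (3 libraries) received both. The methods place the collection of cells at day 28 and a figure legend at day 21. For anti-PD-1 replicate 2 the label of the agent names another target, and its title set its group. Library totals ran from 13048075 to 18796479 counts.

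When amino acids run short or protein folding in the ER fails, sensor kinases phosphorylate the translation factor eIF2alpha. General protein synthesis slows, while the transcription factor ATF4 is made from its existing mRNA and switches on genes for amino acid uptake and synthesis, among them Asns. A separate arm of the ER response runs through the sensor IRE1 and the transcription factor XBP1 and raises chaperones such as Hspa5. ATF4 and XBP1 are controlled in large part by translation and by splicing, which counts per gene do not show.

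The libraries were not equally alike, and this bears on each comparison below. OAT-1746 replicate 2 stood apart, its correlation across the tested genes with each of the others lying between 0.911 and 0.956 (Pearson's r of log2 CPM, counts scaled to library size). Mitochondrial transcripts made up 2.46% and 2.26% of the counts in the OAT-1746 libraries and between 0.779% and 1.61% in the other 7. The sort marker Itgam was present in every library, from 294 to 446 CPM. The closest replicates were COMB 2 and COMB 3, whose counts still differed beyond sampling noise (chi-square of 8.10 per gene). All levels below are CPM after TMM normalization unless they are given per length.

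Per kilobase of exon (RPKM), the genes covered a wide range of levels in the CTR libraries. Hspa5 had a mean of 391 RPKM ± 57.0 (SD, n = 2), Xbp1 85.1 ± 13.8, Atf4 46.2 ± 0.0273 and Ppp1r15a 29.5 ± 3.07. Ddit4 followed with a mean of 16.9 RPKM ± 7.05, Sesn2 with 13.7 ± 1.07 and Ddit3 with 10.2 ± 1.03. Asns was at 3.18 RPKM ± 0.368, Trib3 at 2.34 ± 0.0149 and Chac1 at 0.420 ± 0.340. Ddit4 and Sesn2 overlapped between the CTR libraries, and no other neighbours in this order did.

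**Figure D1:**
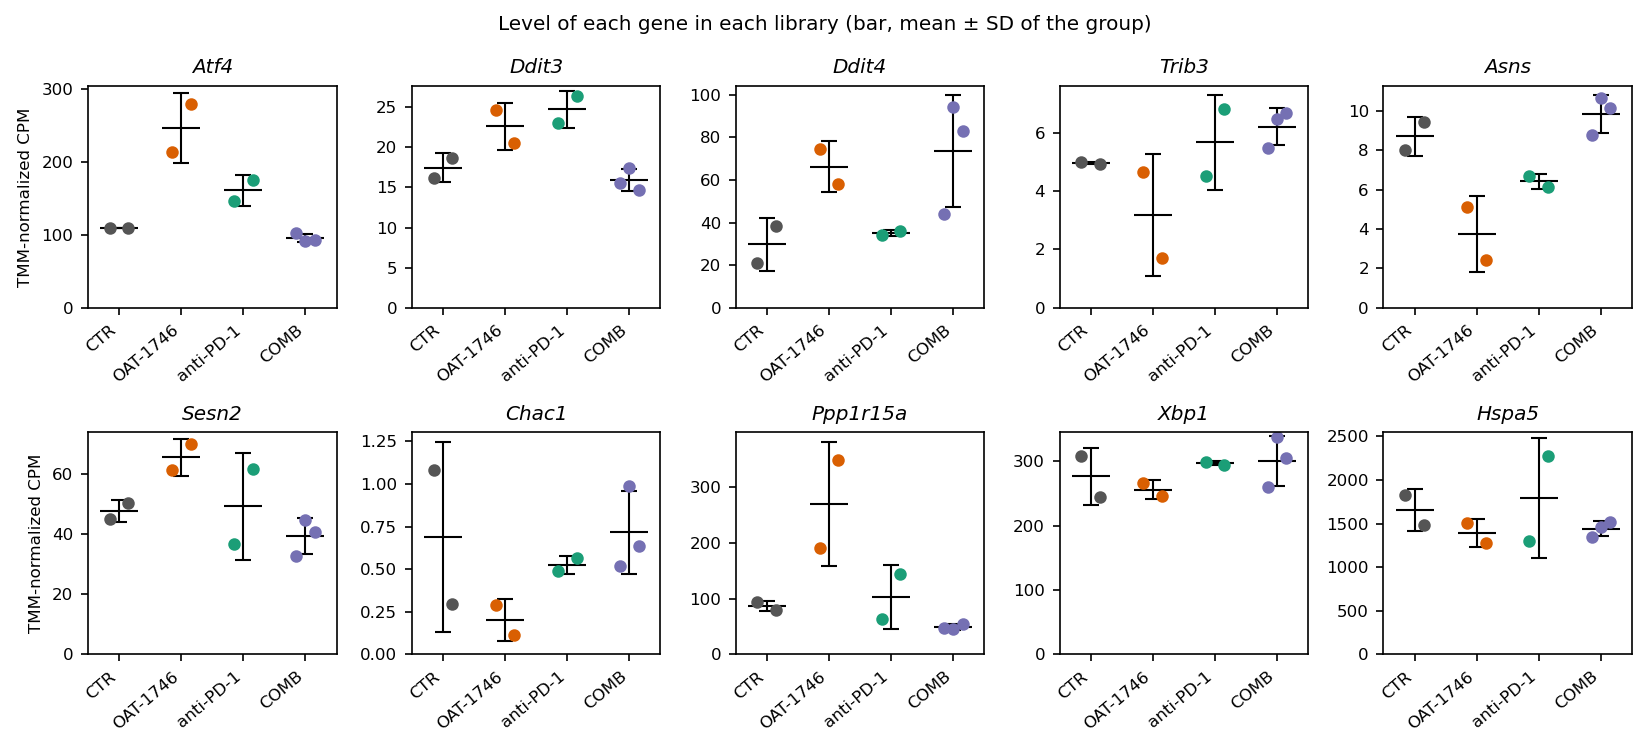
TMM-normalized CPM (y axis, from 0) of each of the 10 genes in the 9 libraries (points) by treatment group (x axis), with the mean and SD of the group as bars. For Atf4 the libraries of the 4 groups do not overlap, with OAT-1746 highest (213 and 279.8 CPM), but the lower level in COMB (92.1 to 102 CPM) than in CTR did not pass the test, whereas each treated group overlaps with CTR for Xbp1 and Hspa5.

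Atf4, the transcription factor at the centre of the amino acid response (chr15:80255184-80257541, plus strand, GRCm38), had its highest level under OAT-1746 and its lowest in COMB. Its level was 109 and 109 CPM in CTR, 213 and 279.8 CPM in OAT-1746, 146 and 176 CPM in anti-PD-1, and 102, 92.1 and 93.1 CPM in COMB. No library of one group overlapped with those of another. Against CTR the log2 fold change in OAT-1746 was 1.18 ± 0.18 (SE), a 2.26-fold difference with an edgeR adjusted p of 0.0599. Atf4 was also higher in anti-PD-1 than in CTR (log2 fold change 0.56, edgeR adjusted p = 0.951), and against anti-PD-1 it was lower in COMB (log2 fold change -0.75, adjusted p = 0.424). Between COMB and CTR the log2 fold change was -0.19 ± 0.16 (SE, adjusted p = 0.817), which did not pass an unadjusted p of 0.05 either. Without anti-PD-1 replicate 2 the difference between anti-PD-1 and CTR was 0.42 and no longer passed an unadjusted p of 0.05.

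Whether OAT-1746 acted differently with the antibody was asked by the interaction, which is the log2 fold change between COMB and anti-PD-1 minus that between OAT-1746 and CTR. For Atf4 it was -1.92 ± 0.24 (SE), with an edgeR adjusted p of 0.0289. Atf4 ranked 8 by p among all tested genes and was the 1 gene of the 10 called at an adjusted p under 0.05, against 0.359% of all tested genes (45 genes). The size of the difference lay between -2.1 and -1.69 when each library was left out, but the call was lost without CTR replicate 1 (adjusted p = 0.218), CTR replicate 2 (0.168), anti-PD-1 replicate 2 (0.144), COMB replicate 2 (0.101) or COMB replicate 3 (0.145). Over all 15 alternatives the adjusted p ran from 1.79e-09 to 0.298, and it was under 0.05 in 9 of them, also without OAT-1746 replicate 2 (log2 difference -1.69, adjusted p = 0.022).

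Ppp1r15a (GADD34), the phosphatase subunit that removes the phosphate from eIF2alpha and lets protein synthesis resume, also had its highest level in OAT-1746 and its lowest in COMB. Its level was 93.0 and 80.3 CPM in CTR, 191 and 348 CPM in OAT-1746, 62.9 and 144 CPM in anti-PD-1, and 47.2, 45.4 and 54.4 CPM in COMB. Both OAT-1746 libraries lay above, and the 3 COMB libraries below, those of all other groups, whereas the anti-PD-1 libraries fell on either side of CTR. The log2 fold change between OAT-1746 and CTR was 1.64 ± 0.38 (SE), 3.11-fold (edgeR adjusted p = 0.062). Leaving out OAT-1746 replicate 2 gave 1.15. Between COMB and CTR it was -0.82 (adjusted p = 0.752), a difference that missed an unadjusted p of 0.05 whichever of the CTR or COMB libraries was left out. Between COMB and anti-PD-1 it was -1.08 (adjusted p = 0.574), and -0.35 without anti-PD-1 replicate 2. The interaction was -2.72 ± 0.51 (SE), with an edgeR adjusted p of 0.0662 and a DESeq2 adjusted p of 5.85e-05, and over the 15 alternatives the adjusted p was under 0.05 in 5 and at most 0.382. An end of Ppp1r15a overlaps Tulp2 on the opposite strand, which strand-specific counting keeps apart.

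Ddit3 (CHOP), a transcription factor induced downstream of ATF4 and linked to cell death under lasting stress, differed less. Its level was 16.2 and 18.7 CPM in CTR, 24.7 and 20.5 CPM in OAT-1746, 23.1 and 26.3 CPM in anti-PD-1, and 15.6, 17.4 and 14.7 CPM in COMB. Both single agents lay above CTR in every library, and COMB overlapped with CTR. Ddit3 was higher in anti-PD-1 than in CTR (log2 fold change 0.50, edgeR adjusted p = 0.951), a difference that missed the unadjusted threshold without CTR replicate 1 or anti-PD-1 replicate 2. Its log2 fold change was 0.37 between OAT-1746 and CTR (edgeR adjusted p = 0.173) and -0.64 between COMB and anti-PD-1 (adjusted p = 0.46). The first of these was 0.51 without OAT-1746 replicate 2 and then passed an unadjusted p of 0.05, and 0.23 without OAT-1746 replicate 1, where it did not. The interaction was -1.01 (edgeR adjusted p = 0.085).

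Ddit4 (REDD1) and Sesn2 both restrain the growth kinase complex mTORC1, Sesn2 as a sensor of leucine, and their patterns were unlike each other. Ddit4 was at 20.96 and 38.5 CPM in CTR, 74.6 and 57.9 CPM in OAT-1746, 34.2 and 36.1 CPM in anti-PD-1, and 44.0, 94.0 and 82.9 CPM in COMB. Every library given OAT-1746, alone or with the antibody, was above every library without it. The log2 fold change was 1.16 ± 0.37 (SE) between OAT-1746 and CTR (edgeR adjusted p = 0.0855), 1.31 ± 0.35 between COMB and CTR (adjusted p = 0.673) and 1.07 ± 0.34 between COMB and anti-PD-1 (adjusted p = 0.574). The interaction was -0.09 ± 0.49 (adjusted p = 0.929). The difference between OAT-1746 and CTR was 0.79 without CTR replicate 1, and that between COMB and anti-PD-1 was 1.03 without anti-PD-1 replicate 1, and neither then passed an unadjusted p of 0.05. Sesn2 was at 45.1 and 50.4 CPM in CTR, 61.3 and 70.0 CPM in OAT-1746, 36.7 and 61.8 CPM in anti-PD-1, and 32.7, 44.7 and 40.8 CPM in COMB. Its anti-PD-1 libraries spanned those of CTR, and its interaction of -0.78 had an edgeR adjusted p of 0.179. It was -0.34 without anti-PD-1 replicate 2, and it no longer passed an unadjusted p of 0.05 without that library, CTR replicate 1 or 2, OAT-1746 replicate 2, or COMB replicate 1 or 3.

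Asns, which makes asparagine and is a classical target of ATF4, went the other way from Atf4. It was at 7.99 and 9.41 CPM in CTR, 5.12 and 2.40 CPM in OAT-1746, 6.69 and 6.14 CPM in anti-PD-1, and 8.75, 10.6 and 10.1 CPM in COMB. Both OAT-1746 libraries lay below all others, and COMB overlapped with CTR. The log2 fold change between OAT-1746 and CTR was -1.21 ± 0.32 (SE), with an edgeR adjusted p of 0.0702. The interaction was 1.83 ± 0.44 (edgeR adjusted p = 0.0875). These were -0.75 and 1.40 with OAT-1746 replicate 2, the lower of the pair, left out, and -1.86 and 2.48 with replicate 1 left out.

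The promoters of these genes are of interest because ATF4 and C/EBP partners bind a core of TGATGNAA, and because the ER response has elements of its own. Windows of 250 bases before to 50 after each start were taken from RefSeq (GRCm38.p6) and searched on both strands. TGATGNAA was found in 3 of the 10 promoters (Asns, Chac1 and Trib3) and in 3.97% of 32851 promoters. The ER stress response element, CCAAT and CCACG with 9 bases between them, was found in Hspa5 and in 0.119% of promoters. Its relative, ATTGG and CCACG with 1 base between them, and the core TGACGTGG were in 0.0365% and 0.676% of promoters and in none of the 10. The stretches below run 5′ to 3′ on the strand of the gene, with the match in capitals. Those of Asns (chr6:7693214-7693243, minus strand) and Hspa5 (chr2:34772020-34772049, plus strand) lie before the RefSeq start but inside the gene as GENCODE M21 annotates it, and that of Chac1 (chr2:119351019-119351086, plus strand) lies upstream of both starts and has the core on the opposite strand.
Asns: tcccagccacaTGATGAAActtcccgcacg
Chac1: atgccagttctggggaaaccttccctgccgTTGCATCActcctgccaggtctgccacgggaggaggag
Hspa5: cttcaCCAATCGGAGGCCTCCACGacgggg

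Trib3, a pseudokinase that feeds back on ATF4 and CHOP, and Chac1, which degrades glutathione, had the lowest mean RPKM of the genes in CTR. Trib3 was at 4.99 and 4.94 CPM in CTR, 4.66 and 1.72 CPM in OAT-1746, 4.53 and 6.82 CPM in anti-PD-1, and 5.49 to 6.66 CPM in COMB. Its lowest library was OAT-1746 replicate 2, and no difference passed an unadjusted p of 0.05 in the 5 comparisons. The log2 fold change between OAT-1746 and CTR was -0.64 and the interaction 0.76. These were -0.08 and 0.23 without OAT-1746 replicate 2, and -1.53 and 1.66 without replicate 1, where both passed. Chac1 had between 2 and 18 counts per library, and 18 and 5 in CTR, so that differences in it were hardly detectable. Its log2 fold change between OAT-1746 and CTR was -1.72 ± 0.82 (SE; edgeR adjusted p = 0.178). It was -0.51 without CTR replicate 1 and -2.51 without OAT-1746 replicate 1, and it passed an unadjusted p of 0.05 without CTR replicate 2.

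Xbp1 and Hspa5 stand for the other arm, the response of the ER to unfolded protein. Xbp1 (chr11:5520659-5525893) was at 308 and 245 CPM in CTR, 266 and 245 CPM in OAT-1746, 299 and 295 CPM in anti-PD-1, and 259, 337 and 304 CPM in COMB. Hspa5 (BiP), the main chaperone of the ER lumen, was at 1823 and 1482 CPM in CTR, 1506 and 1281 CPM in OAT-1746, 1305 and 2276 CPM in anti-PD-1, and 1345, 1466 and 1517 CPM in COMB. For both genes each treated group overlapped with CTR. The log2 fold changes of Xbp1 ran from -0.11 to 0.13 over the 5 comparisons and those of Hspa5 from -0.31 to 0.12, and none passed an unadjusted p of 0.05. Hspa5 did so between COMB and anti-PD-1 without anti-PD-1 replicate 1 (-0.66). The SE of 0.17 to 0.25 for Xbp1 and 0.23 to 0.35 for Hspa5 limits what could be seen.

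**Figure D2:**
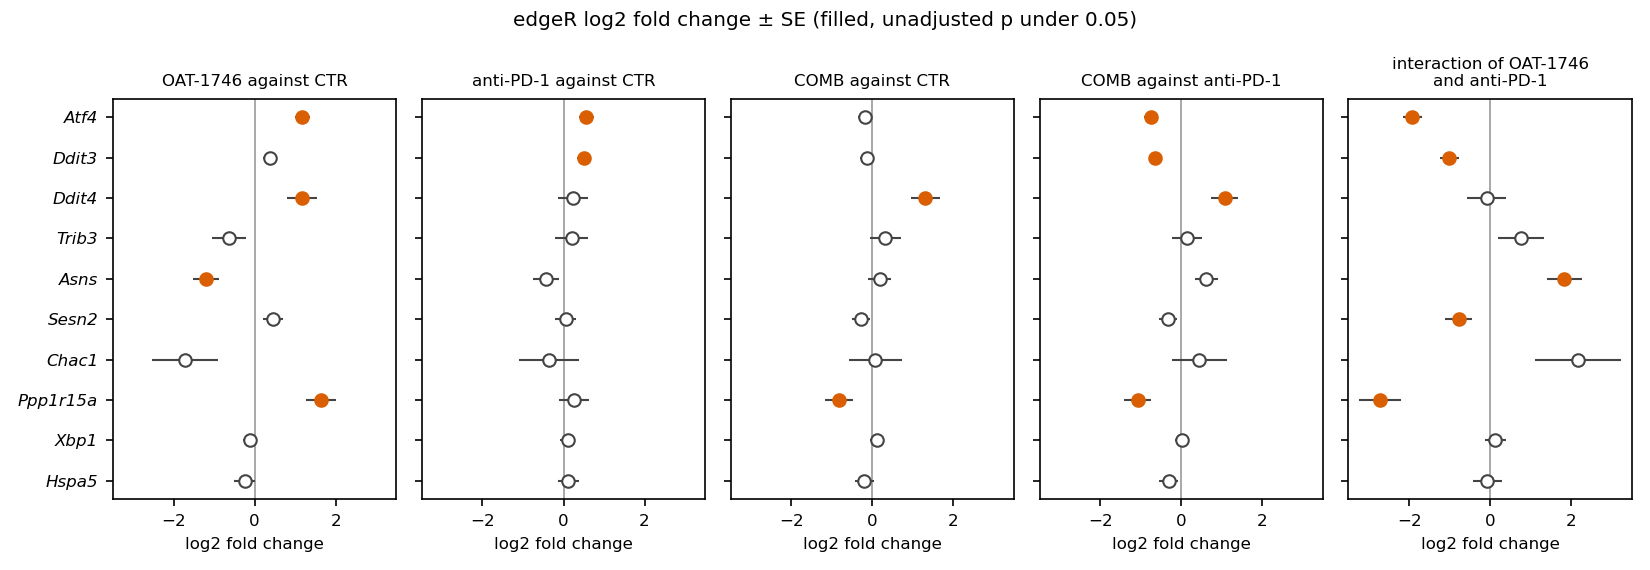
edgeR log2 fold change (x axis) with its SE (lines) of the 10 genes in the 5 comparisons, filled where the unadjusted p is under 0.05. Atf4 and Ppp1r15a lie to the right for OAT-1746 against CTR (1.18 and 1.64) and to the left in the interaction (-1.92 and -2.72), and Asns lies on the opposite side (-1.21 and 1.83).

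Taken by comparison, OAT-1746 against CTR had 3 of the 10 genes higher (Atf4, Ddit4 and Ppp1r15a) and 1 lower (Asns) at an unadjusted p under 0.05. Among all tested genes 16.1% were higher and 16.2% lower by this rule, and the medians of the log2 fold change were 0.13 for the 10 genes and 0.01 for all. At an edgeR adjusted p under 0.05 the share was 0% of all genes, with 0 of the 10. DESeq2 called Atf4, Ddit4, Ppp1r15a and Asns at its adjusted p, against 17.3% of the genes it tested. Leaving out OAT-1746 replicate 2 gave 4 genes higher and 1 lower, beside 8.30% and 6.33% of all genes. CTR had 2 libraries, and an edgeR p here sets a difference against the spread between libraries within groups, estimated over all 9 libraries.

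With the antibody alone, 2 of the 10 genes were higher than in CTR (Atf4 and Ddit3) and 0 lower at an unadjusted edgeR p under 0.05, against 3.18% and 1.94% of all genes. At an adjusted p the count was 0 of the 10 in edgeR, with 0% of all genes, and 0 of the 10 in DESeq2, with 0.112%. For COMB against CTR, 1 gene was higher (Ddit4) and 1 lower (Ppp1r15a), against 3.21% and 3.37% of all genes, and 0 of the 10 were called at an adjusted p by edgeR (0% of all genes) or DESeq2 (0.279%).

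For COMB against anti-PD-1, 1 gene was higher (Ddit4) and 3 lower (Atf4, Ddit3 and Ppp1r15a), against 1.98% and 5.26% of all genes at an unadjusted edgeR p under 0.05. edgeR called 0 of the 10 at an adjusted p (0% of all genes), and DESeq2 called Atf4 (adjusted p = 0.0211), against 0.434% of its genes. In the interaction, 1 gene was higher (Asns) and 4 lower (Atf4, Ddit3, Sesn2 and Ppp1r15a), against 11.8% and 14.4% of all genes. DESeq2 called 4 of the 10 in the interaction, Atf4, Ddit3, Ppp1r15a and Asns, against 9.05% of its genes. CTR enters 4 of the 5 comparisons, so these counts are not independent of each other.

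Other targets of ATF4 and CHOP were compared in the same way. Of 26 listed, 24 were tested, and between OAT-1746 and CTR 4 were higher and 4 lower at an unadjusted p under 0.05, beside 16.1% and 16.2% of all genes, with a median log2 fold change of -0.04. There were 3 and 0 without OAT-1746 replicate 2, beside 8.30% and 6.33%. In anti-PD-1 against CTR 3 were higher (Cebpb, Bbc3 and Gadd45a) and 0 lower, beside 3.18% and 1.94% of all genes. For COMB against CTR 5 were higher (Cebpb, Cebpg, Ndrg1, Gpt2 and Gadd45a) and 2 lower (Atf3 and Gdf15), beside 3.21% and 3.37%, and with anti-PD-1 as the reference 0 were higher and 4 lower (Atf3, Gdf15, Bbc3 and Cdkn1a), beside 1.98% and 5.26%. The interaction had 3 higher and 4 lower, beside 11.8% and 14.4%, and 0 and 6 without OAT-1746 replicate 2, beside 7.96% and 9.22%. Cebpb, a transcription factor that pairs with ATF4, was at 233 and 133 CPM in CTR, 180.0 and 93.7 CPM in OAT-1746, 557 and 756 CPM in anti-PD-1, and 357, 455 and 537 CPM in COMB. Compared with CTR the log2 fold change of Cebpb was 1.85 in anti-PD-1 (edgeR adjusted p = 0.951, DESeq2 adjusted p = 0.0103) and 1.30 in COMB (edgeR adjusted p = 0.673, DESeq2 adjusted p = 0.0427). Apart from Bbc3, the genes in these brackets are named after their values were seen. Herpud1, which helps clear misfolded protein from the ER, was at 195 and 184 CPM in CTR, 296 and 443 CPM in OAT-1746, 248 and 204 CPM in anti-PD-1, and 182, 178 and 156 CPM in COMB (log2 fold change between OAT-1746 and CTR 0.96, edgeR adjusted p = 0.061). Bbc3 (PUMA), a cell death gene, was at 15.3 and 15.1 CPM in CTR, 21.8 and 31.7 CPM in OAT-1746, 22.6 and 22.6 CPM in anti-PD-1, and 12.3 to 12.5 CPM in COMB. Both single agents thus lay above CTR (log2 fold changes 0.82 and 0.57, edgeR adjusted p = 0.062 and 0.951), OAT-1746 at 0.53 without its replicate 2, and COMB lay below anti-PD-1 (-0.86, adjusted p = 0.424). Its interaction of -1.68 was called (edgeR adjusted p = 0.0401), as was that of Atf3 (-2.89, adjusted p = 0.0499), and each adjusted p was under 0.05 in 5 of 15 alternatives, ranging up to 0.382 for Bbc3 and 0.394 for Atf3. Atf3, also an immediate early gene, is named because it passed, after its values were seen.

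Among aminoacyl-tRNA synthetases and amino acid synthesis enzymes, more were lower than higher in OAT-1746 at an unadjusted p under 0.05. edgeR called 0 of them at an adjusted p. Markers of microglia, monocytes and macrophages also differed in OAT-1746, as given below, and their part in these lists was not tested. Of 20 cytosolic aminoacyl-tRNA synthetases, which load amino acids onto tRNA and several of which are known ATF4 targets, 11 were lower and 0 higher than in CTR at an unadjusted p under 0.05, beside 16.2% and 16.1% of all genes, with a median log2 fold change of -0.44. Dars was at 124 and 117 CPM in CTR and at 82.0 and 61.2 CPM in OAT-1746 (log2 fold change -0.75, edgeR adjusted p = 0.0715), and Farsb had a log2 fold change of -0.61 (adjusted p = 0.0718). In the interaction 10 were higher and 0 lower, beside 11.8% and 14.4% of all genes. When OAT-1746 replicate 2 was left out, 3 synthetases were lower, with a median of -0.30, beside 6.33% of all genes, and 7 were higher in the interaction, beside 7.96%.

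Of 16 tested enzymes of amino acid synthesis, 8 were lower and 2 higher in OAT-1746, beside 16.2% and 16.1% of all genes, with a median log2 fold change of -0.48. Shmt2, a mitochondrial enzyme of serine and glycine metabolism, had -0.60 (edgeR adjusted p = 0.0695), and Psph, the last step of serine synthesis, had -0.57 and an interaction of 1.02 (adjusted p = 0.102). Glul, which makes glutamine, was on the other side, at 677 and 894 CPM in CTR and at 1499 and 2103 CPM in OAT-1746 (log2 fold change 1.20, edgeR adjusted p = 0.061). The counts were 4 lower and 1 higher without OAT-1746 replicate 2, beside 6.33% and 8.30%.

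Among 17 tested amino acid transporters, 3 were higher and 4 lower in OAT-1746, near the 16.1% and 16.2% of all genes. Slc38a2, a carrier of neutral amino acids that cells raise when these are short, was at 156 and 125 CPM in CTR and at 196 and 309 CPM in OAT-1746 (log2 fold change 0.85, edgeR adjusted p = 0.0702, and 0.50 without OAT-1746 replicate 2). Slc1a5, a glutamine carrier, was at 34.8 and 30.6 CPM in CTR and at 15.2 and 8.30 CPM in OAT-1746 (log2 fold change -1.47, adjusted p = 0.061). Slc7a1, the main arginine carrier of many cells, had a log2 fold change of -0.48 (adjusted p = 0.0943), which was -0.27 without OAT-1746 replicate 2 and no longer passed an unadjusted p of 0.05. The counts of the list were then 1 higher and 1 lower, beside 8.30% and 6.33% of all genes.

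Lists around eIF2alpha and mTORC1 had genes in both directions, to be read beside the 16.1% of all genes that were higher and the 16.2% that were lower. Of 22 kinases and translational control genes, 3 were higher and 7 lower in OAT-1746, among them Eif2s1, which encodes eIF2alpha itself (log2 fold change -0.82, edgeR adjusted p = 0.0715), and Eif2s3x, another subunit (-0.64, adjusted p = 0.0689). These counts were 0 and 2 without OAT-1746 replicate 2, beside 8.30% and 6.33% of all genes. Of 34 genes of amino acid sensing by mTORC1, 8 were higher and 5 lower, Flcn (0.98, adjusted p = 0.0689), Rptor (0.85, adjusted p = 0.0702) and Fnip1 (0.73, adjusted p = 0.0716) among the higher, and 5 and 1 without that library. Flcn was then at a log2 fold change of 0.54, Rptor at 0.67 and Fnip1 at 0.44.

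Lists for the ER are likewise read beside the 16.1% of all genes higher and the 16.2% lower. Of 27 chaperones and folding enzymes, 1 was higher and 4 lower in OAT-1746 at an unadjusted p under 0.05. Their median log2 fold change was -0.33, with 23 of the 27 below 0, and the median was -0.17 without OAT-1746 replicate 2. Dnajb9 was the higher one (log2 fold change 0.55, edgeR adjusted p = 0.087) and Dnajc10 was among the lower ones (-0.40, adjusted p = 0.0964). Of 20 genes of ER-associated degradation, 1 was higher (Herpud1) and 1 lower (Ufd1, -0.41, adjusted p = 0.0935). Of 26 genes of ER translocation and secretion, 0 were higher and 9 lower, with a median log2 fold change of -0.24, among them Ssr4 (-0.73, adjusted p = 0.071) and Sec61b (-0.94, adjusted p = 0.0734). Of 11 sensors and transducers of the unfolded protein response, 3 were higher and 1 lower, with Creb3l2 at a log2 fold change of 1.00 (adjusted p = 0.0628) and Rtcb, the ligase that joins Xbp1 mRNA after IRE1 cuts it, at -0.84 (adjusted p = 0.061). The counts of higher and lower genes without OAT-1746 replicate 2 were 0 and 1 for the chaperones, 1 and 1 for degradation, 0 and 2 for translocation and 1 and 1 for the sensors, beside 8.30% and 6.33% of all genes. Dnajb9 was then at 0.31, which did not pass an unadjusted p of 0.05, and Sec61b at -0.58.

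**Figure D3:**
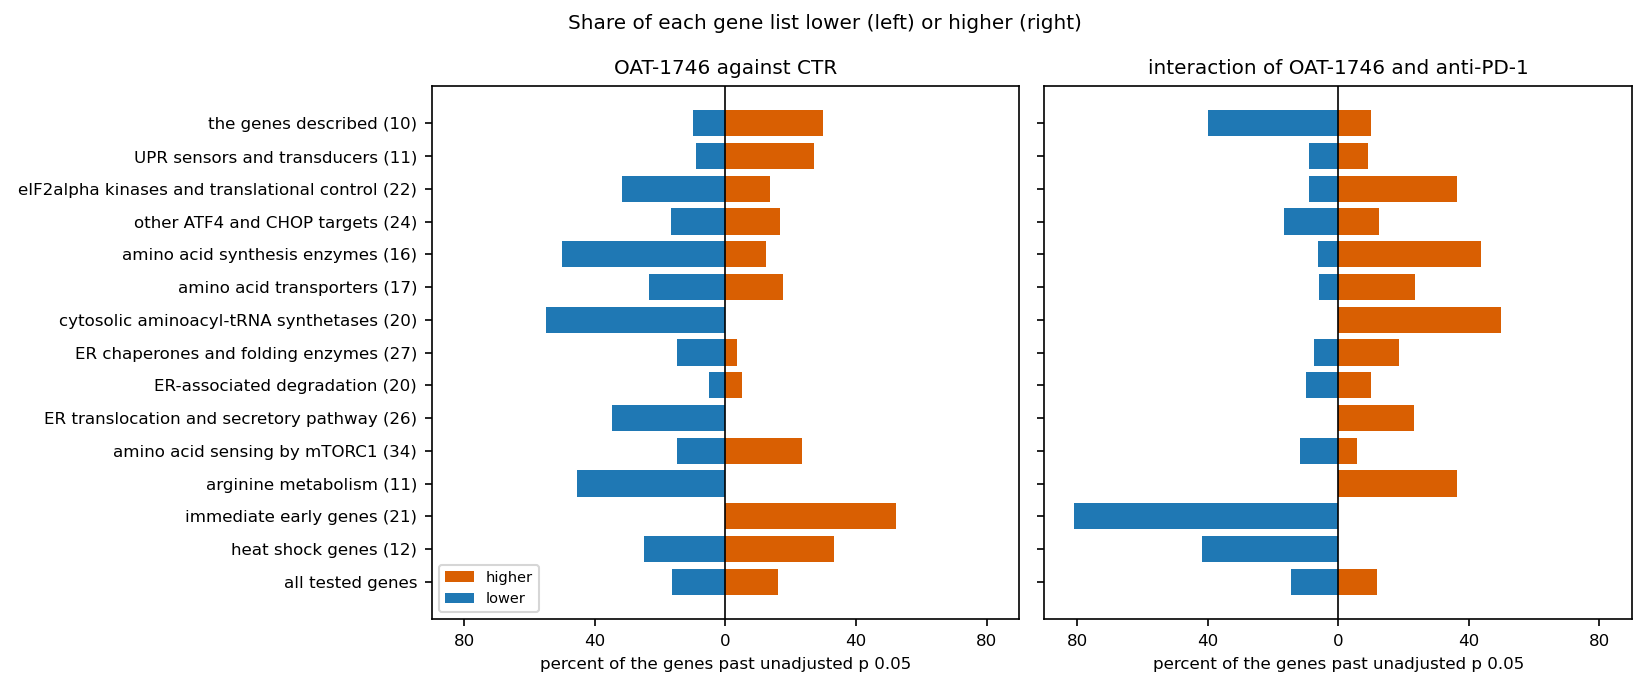
Percent of each gene list (number tested in parentheses) past an unadjusted edgeR p of 0.05, to the right where higher and to the left where lower, for OAT-1746 against CTR and for the interaction. The bottom bar is all tested genes (16.1% higher and 16.2% lower, then 11.8% and 14.4%), and immediate early genes and aminoacyl-tRNA synthetases are on opposite sides.

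The arginine genes cross this response. Of 11 tested genes of arginine metabolism, 0 were higher and 5 lower in OAT-1746, beside 16.1% and 16.2% of all genes, among them Gatm, which uses arginine for creatine (log2 fold change -1.08, edgeR adjusted p = 0.074, interaction 2.04, adjusted p = 0.0756), and 1 was lower without OAT-1746 replicate 2, beside 6.33%.

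Immediate early genes, which cells switch on within minutes of a stimulus, had their highest summed level in OAT-1746 and their lowest in COMB, with anti-PD-1 on either side of CTR. Of 21 tested, 11 were higher and 0 lower in OAT-1746 compared with CTR and 10 passed in neither direction, 3 were higher in anti-PD-1, 0 were higher and 13 lower in COMB compared with CTR, 17 were lower in COMB than with the antibody alone, and 17 were lower in the interaction, at an unadjusted edgeR p under 0.05. Among all genes the shares were 16.1% higher in OAT-1746, 3.18% higher in anti-PD-1, 3.37% lower for COMB against CTR, 5.26% lower for COMB against anti-PD-1 and 14.4% lower in the interaction. Leaving out OAT-1746 replicate 2, 9 were higher in OAT-1746 and 16 lower in the interaction, beside 8.30% and 9.22% of all genes. Their summed level was 15074 and 14145 CPM in CTR, 20938 and 29801 CPM in OAT-1746, 14006 and 18219 CPM in anti-PD-1, and 8089, 9335 and 9437 CPM in COMB, with Junb the most abundant. Egr1 was at 767 and 851 CPM in CTR, 2591 and 3730.0 CPM in OAT-1746, 655 and 1117 CPM in anti-PD-1, and 224 to 256 CPM in COMB, and its interaction of -3.87 was called (edgeR adjusted p = 0.0285). That of Jun was -2.80 (adjusted p = 0.0289). The part of this in the result for Atf4 was not tested.

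Of 12 tested heat shock genes, which help proteins fold, 4 were higher and 3 lower in OAT-1746, beside 16.1% and 16.2% of all genes. The lower ones were Hsph1 (log2 fold change -1.06), a chaperone of the cytosol, and Hspd1 (-0.84) and Hspe1 (-0.94), the chaperonins of mitochondria, which are named after their values were seen. Dnajb1 was at 99.8 and 74.4 CPM in CTR and at 158 and 281 CPM in OAT-1746 (log2 fold change 1.34, edgeR adjusted p = 0.061), and Bag3 had 0.67 (adjusted p = 0.0734). With OAT-1746 replicate 2 left out these were 0.88 and 0.43, and Bag3 no longer passed an unadjusted p of 0.05. Hspa1a was at 24.9 and 8.23 CPM in CTR, 20.7 and 134 CPM in OAT-1746, 33.7 and 60.1 CPM in anti-PD-1, and 5.41, 6.34 and 6.73 CPM in COMB. Its log2 fold change was 2.22 between OAT-1746 and CTR (edgeR adjusted p = 0.0964) and -2.93 between COMB and anti-PD-1 (adjusted p = 0.426), and its interaction was -5.15 (adjusted p = 0.0736). With OAT-1746 replicate 2 left out the first was 0.33, which did not pass an unadjusted p of 0.05, and the interaction -3.23. The counts of the list in OAT-1746 were then 2 higher and 0 lower, beside 8.30% and 6.33%. In COMB against anti-PD-1 0 of the 12 were higher and 5 lower, beside 1.98% and 5.26% of all genes, and in the interaction 0 and 5, beside 11.8% and 14.4%, or 0 and 4 without that library, beside 7.96% and 9.22%.

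**Figure D4:**
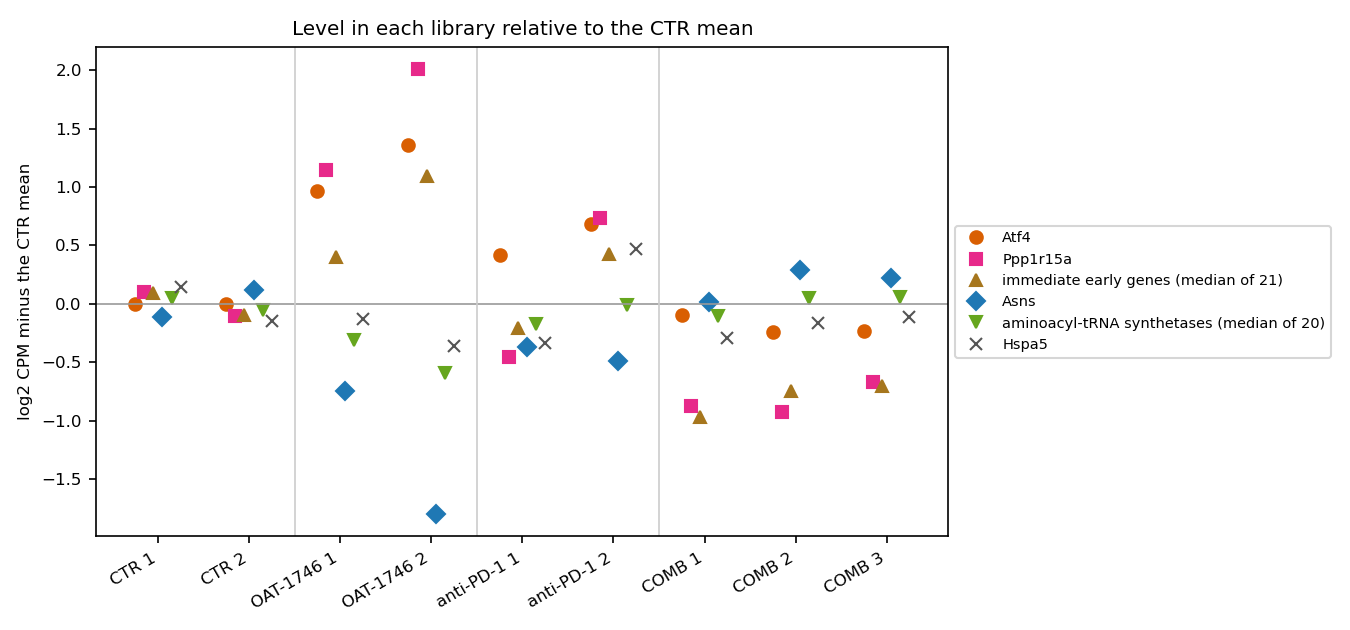
Log2 CPM minus the CTR mean (y axis) in each of the 9 libraries (x axis) for Atf4, Ppp1r15a, Asns and Hspa5 and for the medians of 21 immediate early genes and 20 aminoacyl-tRNA synthetases. Atf4, Ppp1r15a and the immediate early genes are above 0 in both OAT-1746 libraries and below 0 in the 3 COMB libraries, with Asns below 0 in OAT-1746.

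Marker genes of the cell types in the sort also differed in level. Compared with CTR, all 9 microglia markers were higher in OAT-1746 at an unadjusted edgeR p under 0.05. Their summed level was 12788 and 20295 CPM in CTR, 26606 and 33433 CPM in OAT-1746, 19086 and 15483 CPM in anti-PD-1, and 23337, 17495 and 16427 CPM in COMB. Of 9 monocyte and macrophage markers, 6 were lower, beside 16.1% of all genes higher and 16.2% lower, and their sum was 12798 and 11403 CPM in CTR, 8084 and 1810 CPM in OAT-1746, 10666 and 13171 CPM in anti-PD-1, and 9062, 11499 and 11943 CPM in COMB. The most abundant of them, Tgfbi, was at 366 CPM in OAT-1746 replicate 2 and at 2621 CPM in replicate 1. In the interaction 0 of the 9 microglia markers were higher and 3 lower, with a median log2 difference of -0.84. Of the 9 monocyte and macrophage markers 2 were higher and 0 lower there, with a median of 0.87. Among all genes 11.8% were higher and 14.4% lower in the interaction. By flow cytometry, the paper reports no change in the percentages of microglia and blood-derived macrophages with OAT-1746 or the antibody. In bulk RNA of sorted cells, fewer cells of a type and less RNA per cell cannot be told apart. The part of these markers and of the mitochondrial share in the results for Atf4, Ppp1r15a, Asns and the gene lists was not tested.

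Markers of other cells had lower sums. Summed over each list, neutrophil markers (S100a9 the most abundant) lay between 65.5 and 213 CPM, dendritic cell markers (Itgax) between 159 and 1504 CPM, NK cell markers (Klrk1) between 21.1 and 268 CPM, T cell markers (Cd4) between 9.53 and 22.7 CPM, and B and plasma cell markers (Cd79b) between 16.0 and 34.0 CPM. Border-associated macrophage markers (F13a1) lay between 465 and 576 CPM, oligodendrocyte markers (Cnp) between 284 and 452 CPM, astrocyte markers (Slc1a3) between 76.3 and 226 CPM, endothelial markers (Flt1) between 120.4 and 183 CPM, and neural progenitor and glioma markers (Cd44) between 62.9 and 336 CPM. Neuron markers summed to 4.36 to 15.2 CPM and erythroid markers (Hbb-bs) to 0.845 to 29.0 CPM. Itgax and Cd44 made up most of the sums of their lists. Itgax was at 1431 CPM in CTR replicate 1 and 96.4 CPM in OAT-1746 replicate 2, and Cd44 at 302 and 47.6 CPM. These 2 sums thus mainly follow those genes. F13a1 is also on the monocyte and macrophage list. Against CTR, 3 of 6 neuron markers, 2 of 6 border-associated macrophage markers and 2 of 7 neutrophil markers were higher in OAT-1746, beside 16.1% of all genes. Lower were 3 of 7 dendritic cell markers, 2 of 5 neural progenitor and glioma markers and 1 border-associated macrophage marker, beside 16.2%. Of 8 NK cell markers 7 were higher in anti-PD-1, beside 3.18% of all genes. In COMB 4 NK cell markers, 4 of 6 astrocyte markers and 3 of 7 neutrophil markers were higher than in CTR, beside 3.21%. So were 2 of 5 endothelial markers. With anti-PD-1 as the reference 4 neutrophil markers were higher in COMB and 1 lower, and 2 NK cell markers were lower, beside 1.98% and 5.26%. In the interaction 2 NK cell markers and 2 neuron markers were lower and 0 higher, beside 14.4% and 11.8%. Other counts of 1 are left out. The part of these markers in the results was not tested.

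The genes with the most similar pattern were found for 4 of the members, by Pearson's r of log2 CPM over the 9 libraries among 9409 genes. For Atf4 they were Errfi1 (r = 0.988), Rgl2 (0.985) and Dusp8 (0.985), and for Asns they were Anapc10 (0.985), Lsm5 (0.983) and Mrpl28 (0.976). For Ddit3 they were H3f3b (0.956), Tor1aip2 (0.918) and Arid5a (0.917), and for Xbp1 they were Cdpf1 (0.965), Hspa14 (0.949) and Ttc9c (0.944). Leaving out the 2 libraries farthest from the member's median gave an r of 0.956 to 0.967 for the Atf4 genes, 0.855 to 0.971 for the Asns genes, 0.826 to 0.902 for the Ddit3 genes and 0.881 to 0.967 for the Xbp1 genes. These values describe libraries that share their groups and are the highest of many, and they carry no p.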

How the data were processed

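The deposited table holds raw counts of read pairs per gene. The authors made it with Trimmomatic, then STAR (build mm10 in the submitters' notes), Picard to mark duplicates, and HTSeq run strand-specifically. The annotation release was not given in the sources used here. Of 53801 genes, 53620 had an entry in GENCODE M21, and 21890 were protein-coding. In R 4.3.3, edgeR 4.0.16 kept 12538 of these (filterByExpr, minimum count 10), scaled by TMM, and tested group means over all 9 libraries with its two-sided quasi-likelihood F test. p-values were adjusted by the Benjamini-Hochberg method over all tested genes, and called means an adjusted p under 0.05. DESeq2 1.42.0, its size factors, library size only, no low-count filter, all gene types, the replicate number as a block and each library left out were alternatives. Where this left 1 library in a group, it was assumed to vary like the other groups. List results without OAT-1746 replicate 2 were added after seeing the data. Log2 CPM used a prior count of 2.

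The members and lists were chosen with earlier results of these data known. From each list, the 2 genes with the smallest p for OAT-1746 against CTR and the 1 with the smallest in the interaction are named, at a mean of 5 CPM or more. Of each marker list its most abundant gene is named, but some genes that these rules name are not reported here. The steps were tested on simulated data. The libraries are described as biological replicates, and whether any pooled several mice is not given in the sources used here.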

Additional observations from a re-analysis of the deposited data

Results flagged for a closer look

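For 8 of the 263 tested genes of the lists, beside 0.359% of all tested genes, OAT-1746 had a different effect with the antibody than without it, by edgeR's interaction test at an adjusted p under 0.05. Among the 10 genes described this was Atf4 (log2 difference -1.92, adjusted p = 0.0289). Among the other ATF4 and CHOP targets it was Bbc3 (-1.68, adjusted p = 0.0401) and Atf3 (-2.89, adjusted p = 0.0499), and among the immediate early genes Egr1 (-3.87, adjusted p = 0.0285), Jun (-2.80, adjusted p = 0.0289), Ier2 (-1.73, adjusted p = 0.0304), Jund (-2.11, adjusted p = 0.0304) and Ier5 (-1.94, adjusted p = 0.0354). Atf3, Ier2, Jund and Ier5 are named because they passed this test, after their values were seen. The lists were chosen with earlier results of these data known, so the count of 8 of 263 is not independent of these data. All 8 differences were negative in each of the 15 alternatives. The adjusted p was under 0.05 in 9 of the 15 for Atf4, Egr1, Jun, Jund and Ier5, in 8 for Ier2, and in 5 for Bbc3 and Atf3.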

How the results depend on the processing

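Of the 50 fold changes of the 10 genes, 17 passed an unadjusted p of 0.05. Their direction held in all 15 alternatives. Of 153 values with 1 library left out 17 no longer passed, and of 102 values under the other settings 1 did not. Among the 33 other fold changes, 24 of 297 values with 1 library left out had the opposite sign, and 11 passed. Under the other settings 4 of 198 values passed, namely Ddit3 and Sesn2 for OAT-1746 against CTR by library size only, where 6 of the 10 genes passed, and Asns for COMB against anti-PD-1 in DESeq2 and without the low-count filter. The counts of Chac1 were few, 2 to 18 per library, and unlike between the CTR libraries (18 and 5). The part of depth in this was not tested.

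The number of genes called at an adjusted p depended on the tool and the libraries. DESeq2 called 1996 genes for OAT-1746 against CTR, 14 for anti-PD-1 against CTR, 35 for COMB against CTR, 47 for COMB against anti-PD-1 and 1025 in the interaction, where edgeR called 0, 0, 0, 0 and 45. Without the low-count filter edgeR called 587 for OAT-1746 against CTR, 2 for COMB against CTR, 2 for COMB against anti-PD-1 and 146 in the interaction. In the interaction library size only gave 24 and all gene types 18. Leaving out 1 library gave 0 to 3617 for OAT-1746 against CTR, 0 to 52 for COMB against anti-PD-1 and 0 to 2734 in the interaction, each highest without OAT-1746 replicate 1. Of the 10 genes, 3 to 5 passed an unadjusted p of 0.05 for OAT-1746 against CTR, 0 to 2 for anti-PD-1 against CTR, 1 to 2 for COMB against CTR, 3 to 5 for COMB against anti-PD-1 and 4 to 6 in the interaction. These ranges are those with 1 library left out, and by library size only 6 of the 10 genes passed for OAT-1746 against CTR. For COMB against CTR, 403 genes were higher and 422 lower (48.8% higher) at an unadjusted p under 0.05, and 457 and 277 (62.3%) by library size only.

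With the replicate number as a block, edgeR called 0 genes in the interaction, where the adjusted p of Atf4 was 0.298, and 1 of the 10 genes passed for anti-PD-1 against CTR. The deviations of same-numbered libraries from their group means had an r of -0.35 to 0.1. In a group of 2 libraries the deviations mirror each other, so these values cannot show whether the numbers pair the samples.

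The log2 fold changes whose sign turned with 1 library left out ranged as follows. For OAT-1746 against CTR, the range of Xbp1 was -0.28 to 0.07. With anti-PD-1 compared with CTR, Ddit4 lay between -0.13 and 0.74, Trib3 -0.14 and 0.46, Sesn2 -0.39 and 0.38, Chac1 -1.03 and 0.82, Ppp1r15a -0.47 and 0.74, Xbp1 -0.06 and 0.28, and Hspa5 -0.35 and 0.46. For COMB against CTR, Chac1 lay between -0.59 and 1.29 and Xbp1 between -0.04 and 0.32. For COMB against anti-PD-1, Trib3 lay between -0.14 and 0.46, Sesn2 -0.65 and 0.11, Xbp1 -0.08 and 0.12, and Hspa5 -0.66 and 0.15. In the interaction, Ddit4 lay between -0.58 and 0.29, Xbp1 -0.03 and 0.29, and Hspa5 -0.41 and 0.40. The cause was not tested.

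Without OAT-1746 replicate 2, 6 of 56 values of named list genes no longer passed an unadjusted p of 0.05, and 26 of 56 list counts moved by more than 1.5 times. These settings were chosen after seeing the data.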
